A study of Mus musculus with 6 samples.

Results

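Actin assembly and myosin genes were followed in mouse macrophages given polymer nanoparticles. The set was taken by symbol from the deposited gene table: the subunits of the Arp2/3 complex, the WASP and WAVE factors that switch it on, the formins of the Diaph and Fmnl families, capping protein, the cofilins and profilins, the tropomyosins, the actinins and filamins, the nonmuscle myosin II heavy chains Myh9 and Myh10, and every gene whose symbol starts with Myo and a digit. The rule took 67 of the 55487 genes of the table, of which 53 had enough counts to be tested. The rule uses symbols and no measured value, but it was chosen with earlier results of these data known.

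The macrophages were grown from the marrow of Balb/c mice, which were female, wild type and 6 to 12 weeks old, and their poly(A) RNA was sequenced. Marrow cells were cultured for 8 days with 20% medium conditioned by L929 fibroblasts, which supplies the growth factor CSF1, and all cultures were then polarized towards the M2 state for 24 h with IL-4 and IL-13, each at 10 ng/mL. NP libraries (n = 3) came from cells that next received nanoparticles at 200 µg/mL for 24 h, and PBS libraries (n = 3) from cells that received phosphate-buffered saline. The series title names the particle polymer as poly(lactide-co-glycolide), while no source used here explains the treatment label PEMA. Whether the libraries of a group came from separate cultures or mice is not stated, so the p-values reflect the spread among these libraries alone, which may be technical.

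Actin filaments are polymers of actin monomers. Profilin loads monomers onto growing ends, the Arp2/3 complex starts a new filament as a branch on the side of an old one when WASP or WAVE proteins activate it, formins start and lengthen unbranched filaments, capping protein stops growth, and cofilin severs old filaments. Tropomyosins coat filaments and decide which other proteins can bind, actinins and filamins cross-link them, and myosins are the motors that pull on them. In macrophages this machinery builds the ruffles and cups that engulf particles, the podosomes that hold the cell to its substrate, and the tracks along which vesicles move.

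Total counts were 69450411, 61057868 and 60702163 in NP 1 to 3 and 56265590, 41974957 and 51079771 in PBS 1 to 3, so the shallowest NP library exceeded the deepest PBS library, and 3 counts equalled 0.0432 to 0.0715 CPM, counts scaled to a common library size. PBS 2 and PBS 3 stood apart in 1768 olfactory and vomeronasal receptor genes, which summed to 9.62, 10.3 and 11.8 CPM in NP 1 to 3 and to 12.4, 136 and 150 CPM in PBS 1 to 3. Their part in the results was not tested beyond leaving libraries out. The marker counts that follow stand beside 19.8% of all tested genes higher in NP and 21.4% lower. Of 8 macrophage markers, 1 was higher and 6 were lower in NP, with a summed level of 9595 to 10656 CPM in NP libraries and 11897 to 12211 CPM in PBS libraries. The muscle markers, which matter here because several members are best known from muscle, summed to 1.22 to 1.92 CPM in NP against 1.42 to 1.77 CPM in PBS. Acta1 and Myl1 had 0 counts. Of the 3 tested ones, with log2 changes from -0.71 to 0.59, 0 passed the test. Fibroblast and stromal markers summed to 2.27 to 2.78 CPM in NP against 2.69 to 3.38 CPM in PBS. Of the 4 tested ones 1 was higher and 1 lower, with log2 changes from -0.66 to 1.57. Endothelial markers summed to 18.3 to 19.3 CPM in NP against 16.9 to 17.7 CPM in PBS, with 1 of the 3 tested ones higher and 1 lower, their log2 changes running from -1.39 to 0.31. Osteoclast markers summed to 50.4 to 64 CPM in NP against 53.1 to 57.9 CPM in PBS, with 2 of the 5 tested ones higher and 1 lower, from -0.67 to 0.68. Neutrophil markers were low, at 0.862 to 1.15 CPM in NP against 0.604 to 0.773 CPM in PBS, with 0 counts of Ly6g and Camp, and of the 2 tested ones, with log2 changes of 0.65 and 0.66, 1 was higher. Lymphocyte markers summed to 0.926, 1.23 and 1.26 CPM in NP 1 to 3 and to 1.26, 2.67 and 2.45 CPM in PBS 1 to 3, so PBS 1 lay near NP. Of these 6 markers 2 had 0 counts, Cd8a among them, and the 1 tested one did not pass. Mast cell markers reached at most 0.0331 CPM in NP and 0.0469 CPM in PBS, with 0 counts of Cpa3, Mcpt4 and Tpsb2. The part of these markers in the results was not tested. In bulk RNA, fewer cells of a type and less RNA per cell cannot be told apart.

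Of the 53 tested members, 16 were higher in NP, 8 were lower and 29 did not pass the threshold (limma voom, two-sided, Benjamini-Hochberg adjusted p under 0.05 over 14478 genes). The higher members made up 30.2% of those tested, against 19.8% of all tested genes, and the lower members 15.1%, against 21.4% of all tested genes. Counts within the role groups below stand beside the same shares of all tested genes. The median log2 fold change, NP minus PBS, was 0.02 over the members and 0.00 over all tested genes. The 3 NP libraries lay above all 3 PBS libraries in 18 members, against 26.5% of all tested genes, and below them in 10, against 26.8% of all tested genes, and the groups overlapped in 25. With a log2 change of at least 0.3 as a further condition, 8 members were higher, against 7.25% of all tested genes, and 2 were lower, against 11.7%. Flnc, Tpm2 and Myo16 were the 3 called members at least 2-fold higher, and 0 were lowered that far.

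Leaving out 1 library at a time gave 12 to 17 higher members and 3 to 10 lower ones. The count of 8 lower members fell to 4 without NP 1, 3 without NP 3, 4 without PBS 1 and 5 without PBS 2, and it stood at 10 without NP 2. Of all genes tested that way, 14.2% were lower without NP 1, 12.5% without NP 3 and 24% without PBS 1. The share was 18.7% without PBS 2 and 17.1% without NP 2. Of the 24 called members, 15 kept their call whichever library was left out. The other 9, all with log2 changes under 0.3 in size except Pfn2, are named with the libraries on which they depend. With PBS 1 as the sole PBS library, 8 members were higher and 3 lower, where 9.75% of all genes tested that way were higher and 12.4% lower. There 14 of the 24 called members lost their calls, the 9 above and 5 others. Of these 5, Fmnl2 (log2 change 0.44, adjusted p = 0.0662), Myh9 (0.16, adjusted p = 0.0755) and Diaph1 (0.12, adjusted p = 0.13) kept their direction in limma voom, as did Arpc3 (adjusted p = 0.0745) and Myo10 (adjusted p = 0.131).

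**Figure D1:**
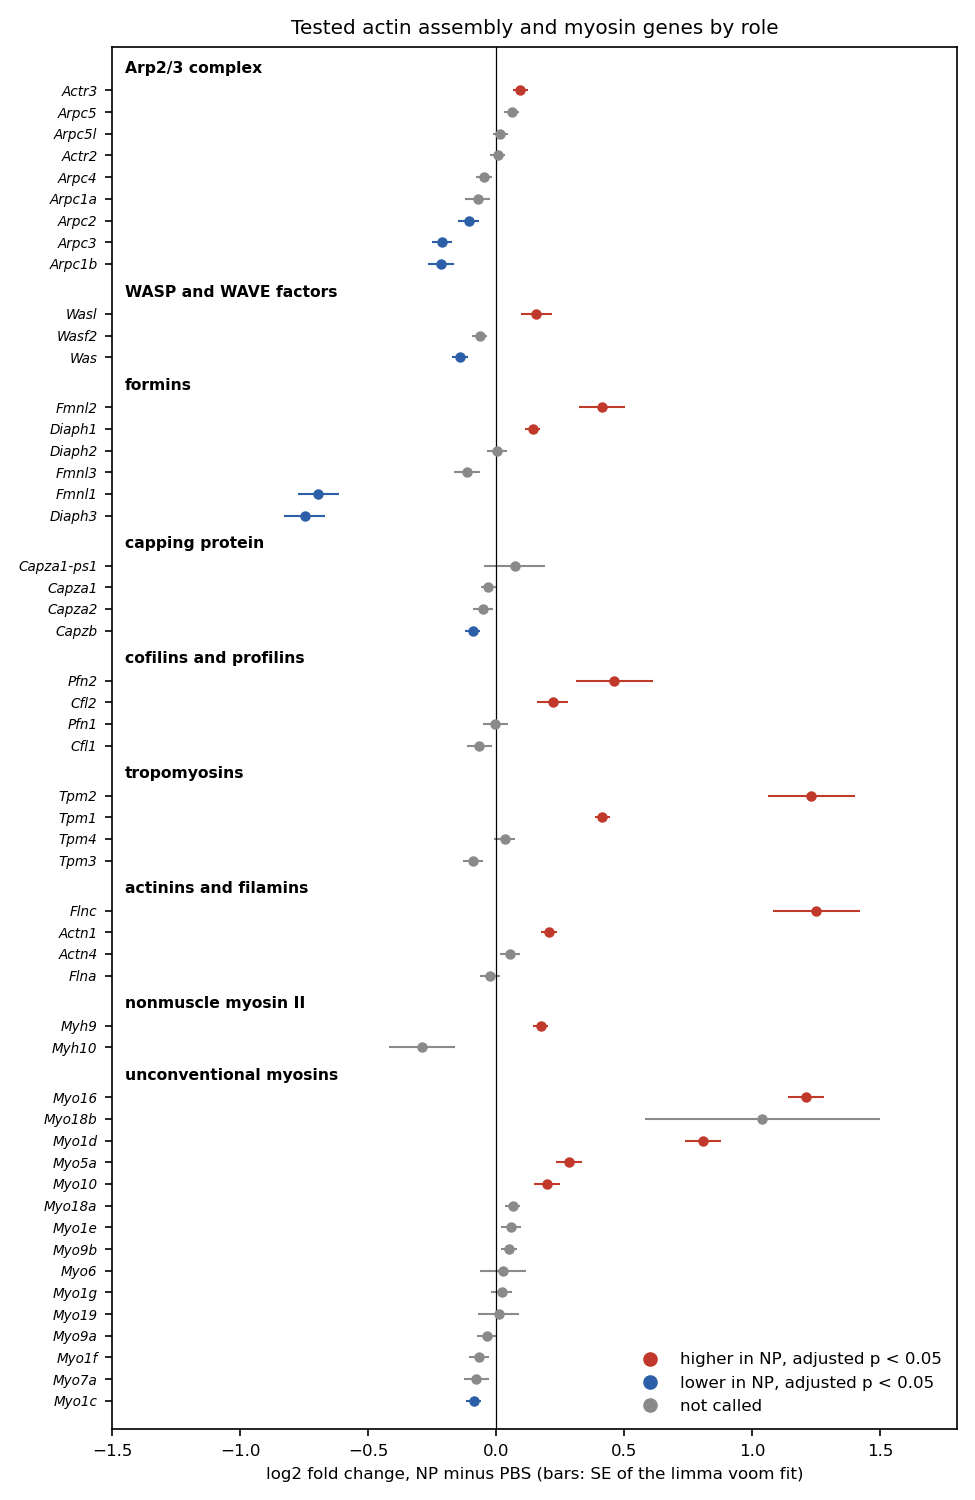
Log2 fold change, NP minus PBS, of 51 tested members, grouped by role. Points are limma voom estimates and bars are standard errors. Flnc, Tpm2 and Myo16 lie above 1, as does Myo18b, which was not called, Fmnl1 and Diaph3 lie lowest, and most members lie near 0.

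The total spent on the set barely differed. Members summed to 14881 ± 331 CPM in NP against 14669 ± 95 CPM in PBS (SD, n = 3 each, as for every later ± not marked SE), or 1.43 to 1.51% of all counts in NP and 1.46 to 1.49% in PBS. Per gene length, as length-scaled TPM averaged over the 6 libraries, the highest levels belonged to Cfl1 (1094 TPM), Arpc2 (1050 TPM), Pfn1 (905 TPM), Tpm4 (714 TPM) and Arpc5 (615 TPM). None of these moved by as much as 0.12 on the log2 scale. The members with log2 changes above 1 and adjusted p under 0.05 were rare RNAs, with mean levels of 5.4 TPM for Flnc, 3.63 TPM for Myo16 and 2.31 TPM for Tpm2. Among the 36 tested members with a mean of at least 50 CPM, 7 were higher and 7 lower, with a median log2 change of -0.01, where 30.3% of all genes at such levels were higher and 25.1% lower. Among the 17 below 50 CPM, 9 were higher and 1 was lower, with a median log2 change of 0.22, where 15.2% of all such genes were higher and 19.7% lower. That division was chosen after the values were seen and is a description.

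**Figure D2:**
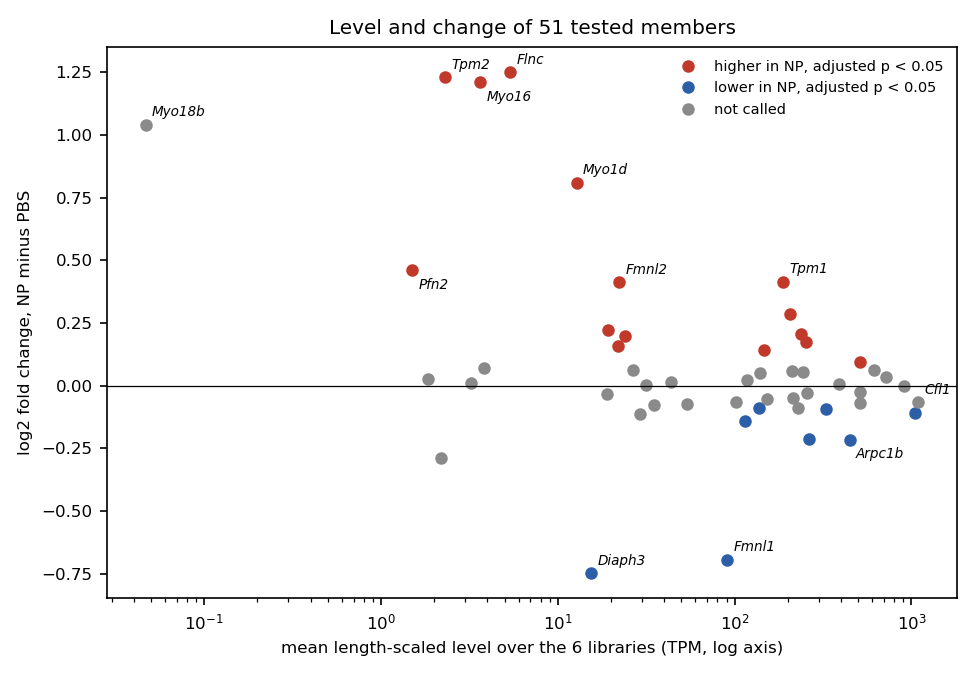
Mean length-scaled level over the 6 libraries (TPM, log axis) against the log2 fold change, NP minus PBS, for 51 tested members. Colours mark members higher or lower in NP at adjusted p under 0.05. Abundant members on the right, such as Cfl1 at 1094 TPM, lie close to 0, and the members above 1 with a call lie below 6 TPM on the left.

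The formin-like genes Fmnl1 and Fmnl2 moved in opposite directions, Fmnl1 lower and Fmnl2 higher in NP. Both encode formins that bind small GTPases at the plasma membrane. FMNL1 is the leukocyte form, known from podosomes and phagocytic cups of macrophages, and FMNL2 is known from lamellipodia and filopodia. Fmnl1 lies at chr11:103171107-103198901 and Fmnl2 at chr2:52857860-53133804 (GRCm38, GENCODE M21). Their promoter windows, from 250 bases before to 50 bases after the start, are shown for that reason. The sequences are RefSeq's on GRCm38.p6, both on the plus strand, chr11:103170888-103171187 for Fmnl1 and chr2:52857618-52857917 for Fmnl2. Capitals mark a match to GAGGAAGT, a motif of the macrophage lineage factor PU.1, read here on the opposite strand as ACTTCCTC.
Fmnl1: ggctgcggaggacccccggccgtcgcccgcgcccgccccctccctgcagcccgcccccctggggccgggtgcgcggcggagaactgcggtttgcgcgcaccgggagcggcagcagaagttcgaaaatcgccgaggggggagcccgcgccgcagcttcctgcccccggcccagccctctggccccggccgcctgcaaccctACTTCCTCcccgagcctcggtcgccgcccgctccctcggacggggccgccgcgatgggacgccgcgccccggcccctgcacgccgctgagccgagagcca
Fmnl2: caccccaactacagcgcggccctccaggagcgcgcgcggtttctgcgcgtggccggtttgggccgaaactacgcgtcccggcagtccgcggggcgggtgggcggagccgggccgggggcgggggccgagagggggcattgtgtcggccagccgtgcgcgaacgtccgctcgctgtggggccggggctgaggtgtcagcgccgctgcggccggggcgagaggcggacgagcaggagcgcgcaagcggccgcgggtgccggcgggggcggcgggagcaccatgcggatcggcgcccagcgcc
The match in the Fmnl1 window starts 50 bases before the start, and the Fmnl2 window holds none of the 3 motifs searched.

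The motifs were searched on both strands in all 32851 RefSeq windows of 300 bases, and 56 members had 64 windows among them. GAGGAAGT was in 3.2% of all windows and in 2 of 64 member windows, those of Fmnl1 and Arpc1b. The CArG box, bound by serum response factor (SRF), was in 1.63% of all windows and in 2 of 64 member windows, those of Arpc4 and Myo1e, neither of which passed the test. The AP-1 motif TGANTCA was in 7.81% of all windows and in 5 of 64 member windows. Among the 13 higher members with a window, 0 held any of the 3 motifs. Of the 8 lower members with a window, 2 held GAGGAAGT, 1 held TGANTCA and 0 held the CArG box. Of the 25 members not called, 0 held GAGGAAGT, 3 held TGANTCA and 2 held the CArG box. With the low shares of all windows given above, these counts are too small to set the groups apart. A match is a description of letters in this window and locates no bound site.

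Fmnl1 was present at 88.5, 117 and 97.6 CPM in NP 1 to 3 and at 169, 161 and 157 CPM in PBS 1 to 3. Every NP library lay below every PBS library, with NP 2 closest to them. The log2 change was -0.69 ± 0.08 (SE), with adjusted p = 0.000232 by limma voom. Fmnl2 was present at 48.5, 37.4 and 41.9 CPM in NP and at 31.4, 34.0 and 30.7 CPM in PBS. Here every NP library lay above every PBS library, and NP 2 was again closest. The log2 change was 0.41 ± 0.09 (SE), with adjusted p = 0.00474 by limma voom. Fmnl3, the third gene of the family, did not pass the test (log2 change -0.11, adjusted p = 0.121 by limma voom). Fmnl1 made up 56.5 ± 4.94% of the length-scaled Fmnl level in NP and 69.4 ± 0.635% in PBS (SD, n = 3 each). Fmnl2 made up 20.8 ± 3.75% in NP and 11.9 ± 0.713% in PBS, and Fmnl3 made up 22.7 ± 1.2% in NP and 18.7 ± 0.636% in PBS. None of these shares overlapped between groups, and the exact two-sided permutation p of 0.1 is the smallest that 3 against 3 libraries allow.

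The diaphanous formins also differed among themselves. Diaph3 (chr14:86655367-87141235) was present at 17.4, 22.3 and 18 CPM in NP and at 32.2, 30.4 and 33.4 CPM in PBS. All NP libraries lay below all PBS libraries, with a log2 change of -0.75 ± 0.08 (SE) and adjusted p = 0.000149 by limma voom. Diaph3 is known from dividing cells, and 10 of 10 cytokinesis genes were lower beside it, where 21.4% of all tested genes were lower. These genes had a median log2 change of -1.19 and a summed level of 241 to 367 CPM in NP against 619 to 682 CPM in PBS. Their part in the Diaph3 value was not tested. Diaph1, the most abundant formin per length, moved the other way, at 298, 285 and 289 CPM in NP against 268, 261 and 260 CPM in PBS. The groups were apart, though the log2 change was 0.14 ± 0.03 (SE, adjusted p = 0.00543 by limma voom). Diaph2 stood at 109 ± 4.95 CPM in NP against 109 ± 3.49 CPM in PBS. The 6 formins together summed to 604 ± 7.63 CPM in NP against 643 ± 13.4 CPM in PBS.

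**Figure D3:**
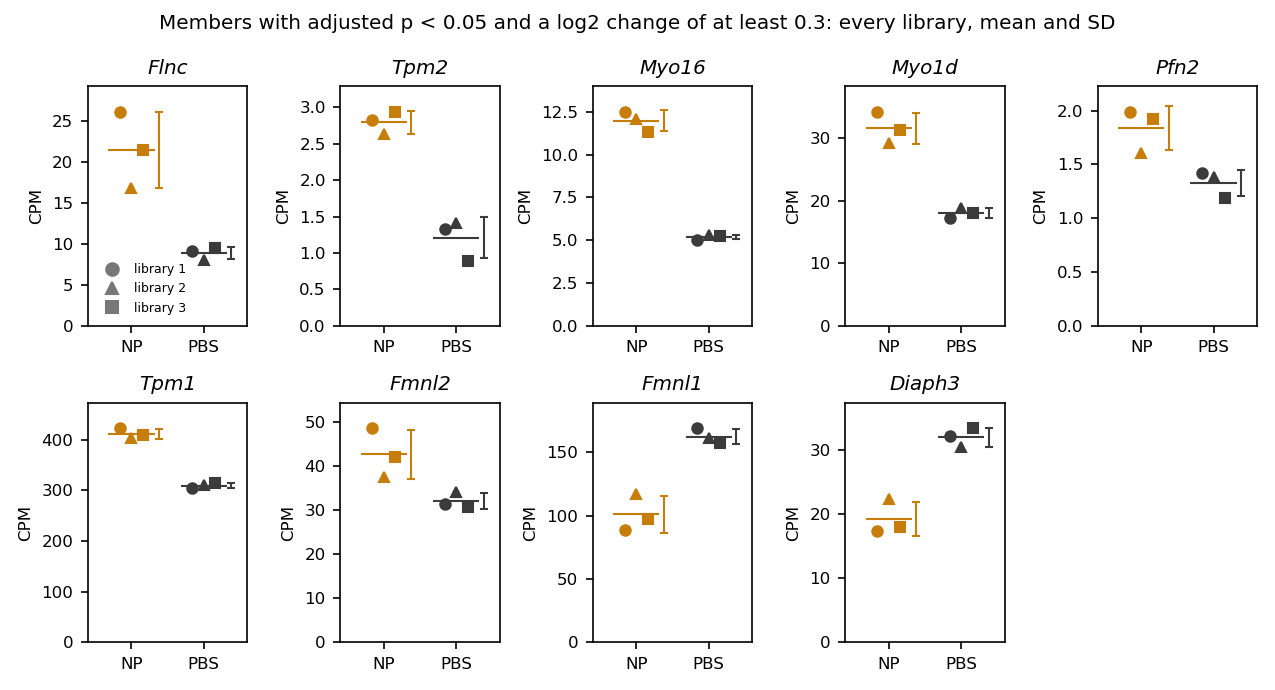
CPM in every library for 9 members with adjusted p under 0.05 and a log2 change of at least 0.3 in size, NP left of PBS. Symbols stand for libraries 1 to 3 of each group, lines for means and bars for SD. In each panel the groups do not overlap, and NP 2 is the NP library closest to PBS in 8 of the 9.

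Of the 9 genes of the Arp2/3 complex, Arpc1b, Arpc2 and Arpc3 were lower, Actr3 was higher and 5 did not pass. Over all tested genes 21.4% were lower and 19.8% higher. Arpc2, which with Arpc4 forms the core that contacts the mother filament, was the most abundant per length, at 596, 640 and 599 CPM in NP against 655, 679 and 641 CPM in PBS. Its NP libraries all lay below its PBS libraries by a narrow margin, NP 2 at 640 CPM against PBS 3 at 641 CPM. The log2 change of -0.11 ± 0.04 (SE) had adjusted p = 0.0494 by limma voom, and the call was lost without NP 1, NP 3, PBS 1, PBS 2 or PBS 3, with adjusted p up to 0.279 over the alternatives. It was also lost with upper-quartile scaling (adjusted p = 0.0575), median-of-ratios scaling (0.052), no low-count filter (0.108) and limma-trend (0.0528), and it held in 5 of 16 settings. Arpc3 was at 201 ± 9.1 CPM in NP against 233 ± 5.68 CPM in PBS (log2 change -0.21, adjusted p = 0.00213 by limma voom). Arpc1b, the ARPC1 form that prevails in blood cells, was at 630 ± 42.8 CPM in NP against 731 ± 32.0 CPM in PBS (log2 change -0.21, adjusted p = 0.00877 by limma voom), and this call was lost without NP 1, NP 3 or PBS 1. Arpc1b shares 931 exonic bases with Pdap1 on the opposite strand, whose counts equalled 17.2% of its own and were higher in NP by 0.16 on the log2 scale. No source used here states the strand setting of the counting, and reads of the shared bases cannot be told apart.

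The actin-related subunits differed little between groups. Actr3 was at 731 ± 14.3 CPM in NP against 685 ± 15.5 CPM in PBS (log2 change 0.09, adjusted p = 0.0387 by limma voom), a call lost without NP 2, NP 3, PBS 2 or PBS 3. Actr2 was at 608 ± 14.5 CPM in NP against 605 ± 13.2 CPM in PBS. Summed over the complex, the level was 3453 ± 106 CPM in NP against 3571 ± 14.5 CPM in PBS, a ratio of 0.967. The balance of alternative subunits differed by about a percentage point or less. Arpc1b was 88.8 ± 0.602% of the Arpc1 level in NP and 89.8 ± 0.0782% in PBS. Arpc5 was 93.4 ± 0.145% of the Arpc5 and Arpc5l level in NP and 93.2 ± 0.176% in PBS. Arpc5l shares 62 exonic bases with Rpl35 on the opposite strand, whose counts equalled 554% of those of Arpc5l. With the strand setting unknown, reads of these bases cannot be told apart either.

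Of the activators, Was, which encodes the blood-cell form WASP needed for podosomes, was lower. It stood at 75.2, 79.7 and 76.6 CPM in NP against 85.7, 84.8 and 84.6 CPM in PBS, and the groups did not overlap. The log2 change was -0.14 ± 0.03 (SE, adjusted p = 0.00744 by limma voom), and the call was lost without NP 3 (adjusted p = 0.0522), with no low-count filter (0.061) and with PBS 1 as the sole PBS library (0.0895). Wasl, which encodes the widely expressed N-WASP, was at 42.1 ± 2.5 CPM in NP against 37.8 ± 2.17 CPM in PBS. Its groups overlapped, and its call (log2 change 0.16, adjusted p = 0.0486 by limma voom) was lost without NP 1, NP 3, PBS 2 or PBS 3 and with no low-count filter. Wasf2, the WAVE form of macrophages, was at 186 ± 1.5 CPM in NP against 195 ± 0.736 CPM in PBS and did not pass (log2 change -0.06, adjusted p = 0.0897 by limma voom). Wasf1 and Wasf3, known from brain, summed to 6 and 0 counts in NP and to 13 and 7 counts in PBS. All of those PBS counts lay in PBS 2 and PBS 3.

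Of the turnover genes, the rarer cofilin Cfl2 and the rarer profilin Pfn2 were higher and Capzb was lower. Cfl1, the main cofilin, was at 849, 969 and 899 CPM in NP against 943, 938 and 958 CPM in PBS. The groups overlapped because NP 2 exceeded all PBS libraries, and the log2 change of -0.07 had adjusted p = 0.284 by limma voom. Without NP 2 it was -0.10 with adjusted p = 0.0476. Cfl2, the muscle cofilin, was at 20.1 ± 0.792 CPM in NP against 17.2 ± 0.944 CPM in PBS (log2 change 0.22, adjusted p = 0.0104 by limma voom), lost without NP 3. Pfn1, the main profilin, was at 647 ± 34.9 CPM in NP against 648 ± 26.4 CPM in PBS. Pfn2 (chr3:57841895-57848079), the neuronal profilin, was at 1.99, 1.61 and 1.92 CPM in NP against 1.42, 1.38 and 1.19 CPM in PBS, so all NP libraries lay above all PBS libraries. Its log2 change was 0.46 ± 0.15 (SE, adjusted p = 0.0368 by limma voom), and the call was lost without NP 1, NP 3, PBS 2 or PBS 3 and with no low-count filter (0.089), with adjusted p up to 0.283 over the alternatives. Capzb, the beta subunit of capping protein, was at 308, 322 and 310 CPM in NP against 334, 330 and 337 CPM in PBS. Its groups were apart, but the call (log2 change -0.09, adjusted p = 0.0373 by limma voom) was lost without NP 1, NP 3, PBS 1, PBS 2 or PBS 3 and with no low-count filter (0.114). The alpha subunits Capza1 and Capza2 had log2 changes of -0.03 and -0.05 and did not pass.

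Of the 4 tropomyosins, Tpm1 and Tpm2 were higher and 0 were lower. Tpm1 (chr9:67022590-67049406) was at 423, 404 and 410 CPM in NP against 304, 310 and 315 CPM in PBS. The groups were far apart for their spread, with a log2 change of 0.41 ± 0.03 (SE, adjusted p = 2.42e-05 by limma voom). Tpm2 (chr4:43514711-43523765), abundant in muscle, was rare at 2.82, 2.63 and 2.94 CPM in NP against 1.33, 1.41 and 0.896 CPM in PBS. Even so its NP libraries lay above all PBS libraries, with a log2 change of 1.23 ± 0.17 (SE, adjusted p = 0.000459 by limma voom). Tpm4, the most abundant form, was at 458, 498 and 466 CPM in NP against 460, 460 and 470 CPM in PBS. Its groups overlapped (log2 change 0.03, adjusted p = 0.502 by limma voom), and the sign turned without PBS 2 and NP 2 (-0.01). Tpm3 was at 401 ± 17.3 CPM in NP against 427 ± 3.4 CPM in PBS (log2 change -0.09, adjusted p = 0.0739 by limma voom). Its own level is uncertain because reads that match Tpm3-rs7, a near-identical copy outside the set, are divided between them. Tpm3-rs7 carried 231 ± 13.4 CPM in NP against 244 ± 7.57 CPM in PBS. Tpm3 and Tpm3-rs7 together summed to 632 ± 30.6 CPM in NP against 670 ± 4.73 CPM in PBS, with all NP libraries below all PBS libraries. The 4 tropomyosins, without Tpm3-rs7, summed to 1291 ± 27.1 CPM in NP against 1200 ± 8.57 CPM in PBS. Tpm1 made up 18.4 ± 0.966% of the length-scaled tropomyosin level in NP and 14.5 ± 0.149% in PBS, or 14.1 ± 0.834% in NP and 10.8 ± 0.169% in PBS with Tpm3-rs7 counted. Neither pair of shares overlapped (exact two-sided permutation p = 0.1, the smallest possible).

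**Figure D4:**
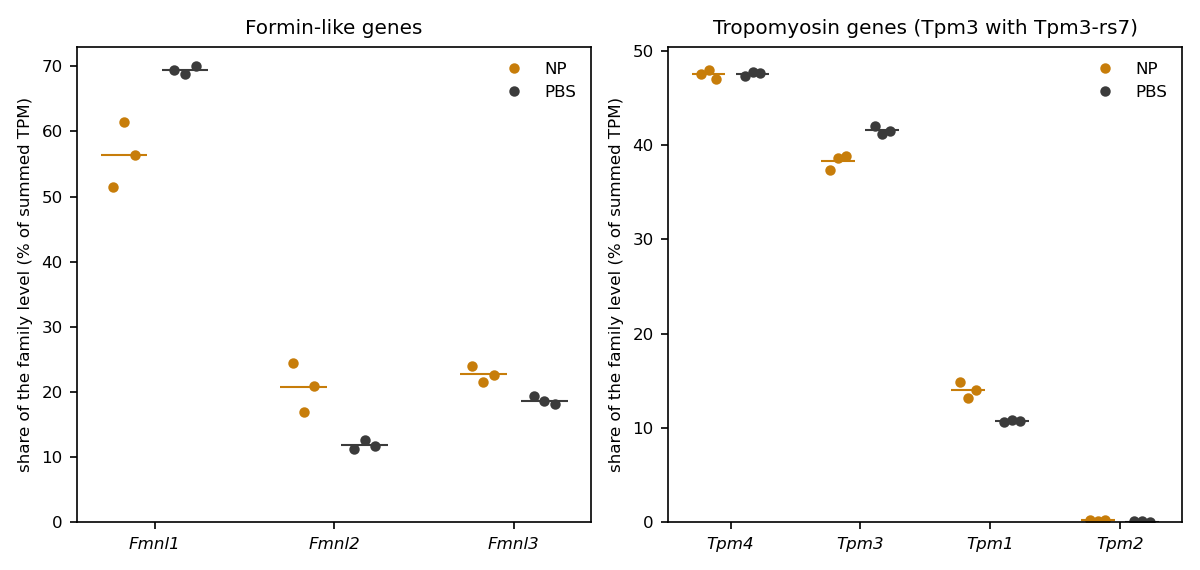
Share of each gene in the summed length-scaled level (percent of TPM) of its family, per library, NP left of PBS. Points are libraries and lines are means, and the tropomyosin panel counts Tpm3-rs7 with Tpm3. Fmnl1 lies at 51.5 to 61.4% in NP and 68.8 to 70.0% in PBS, and Tpm1 at 13.2 to 14.9% in NP and 10.6 to 10.9% in PBS.

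Among the cross-linkers, Flnc had the largest log2 change of all tested members. Flnc (chr6:29433256-29461883) encodes filamin C, the filamin of striated muscle. It was at 26.1, 16.8 and 21.4 CPM in NP against 9.13, 8.09 and 9.51 CPM in PBS. NP 1 was highest and NP 2 lowest of the NP libraries, and all were above PBS, with a log2 change of 1.25 ± 0.17 (SE, adjusted p = 0.000445 by limma voom). Flna, the filamin of most nonmuscle cells, was at 1366, 1496 and 1420 CPM in NP against 1483, 1461 and 1407 CPM in PBS. The groups overlapped (log2 change -0.02, adjusted p = 0.669 by limma voom), and the sign turned without NP 1 (0.02) or PBS 1 (0.01). Actn1, an actinin of adhesions and stress fibres, was at 417 ± 2.79 CPM in NP against 361 ± 5.03 CPM in PBS (log2 change 0.21, adjusted p = 0.000421 by limma voom). Actn4 did not pass (log2 change 0.05, adjusted p = 0.318 by limma voom).

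Of the nonmuscle myosin II heavy chains, 1 of 2 was higher. Myh9, the heavy chain of nonmuscle myosin IIA that contracts actin bundles, was at 1009, 1069 and 1030 CPM in NP against 927, 932 and 897 CPM in PBS. All NP libraries lay above all PBS libraries, with a log2 change of 0.17 ± 0.03 (SE, adjusted p = 0.0029 by limma voom). Myh10, the IIB chain, was at 6.18 ± 1.19 CPM in NP against 7.4 ± 0.0558 CPM in PBS and did not pass (log2 change -0.29, adjusted p = 0.0942 by limma voom). Myh9 made up 99.3 ± 0.118% of their joint length-scaled level in NP and 99 ± 0.0259% in PBS.

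Of the 25 unconventional myosins, 16 were tested, 5 were higher, 1 was lower and 10 did not pass, where 19.8% of all tested genes were higher and 21.4% lower. Myo16 (chr8:10153911-10634742), known mainly from neurons, was at 12.5, 12.1 and 11.3 CPM in NP against 5.04, 5.28 and 5.26 CPM in PBS. The groups were separated by more than the level of PBS itself, with a log2 change of 1.21 ± 0.07 (SE) and the smallest adjusted p of all members, 1.15e-05 by limma voom. Myo1d (chr11:80482126-80780025), a class I myosin that links membranes to actin, was at 34.2, 29.2 and 31.2 CPM in NP against 17.3, 18.9 and 18 CPM in PBS. All NP libraries lay above all PBS libraries (log2 change 0.81 ± 0.07 SE, adjusted p = 3.67e-05 by limma voom). The long-tailed Myo1f, most abundant of all myosins here per length, was at 708, 773 and 729 CPM in NP against 789, 760 and 765 CPM in PBS. Its groups overlapped (log2 change -0.07, adjusted p = 0.189 by limma voom).

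Myo1f held 50.4 ± 0.824% of the class I level per length in NP and 52.1 ± 0.334% in PBS, and Myo1d held 1.66 ± 0.181% in NP and 0.938 ± 0.0513% in PBS. Myo1e and Myo1g did not pass, and Myo1c was lower by a log2 change of -0.09 (adjusted p = 0.0353 by limma voom), a call lost without NP 1, NP 3, PBS 1, PBS 2 or PBS 3 and with no low-count filter. The vesicle-carrying Myo5a was abundant and higher, at 1006 ± 84.1 CPM in NP against 824 ± 21.5 CPM in PBS (log2 change 0.28, adjusted p = 0.00274 by limma voom). Myo10, a motor of filopodial tips, was at 77.5 ± 4.61 CPM in NP against 67.5 ± 1.72 CPM in PBS (log2 change 0.20, adjusted p = 0.00685 by limma voom). Myo6, Myo7a, Myo9a, Myo9b, Myo18a and Myo19 lay between -0.08 and 0.06 and did not pass. Myo19 shares exonic bases with Pigw and Znhit3 on the opposite strand, each with more counts than Myo19 itself. Myo18b had a log2 change of 1.04 but did not pass (adjusted p = 0.0989 by limma voom), at 0.196 ± 0.0121 CPM in NP against 0.103 ± 0.0688 CPM in PBS. Its PBS mean lay below the filter of 0.171 CPM, so it was tested through its NP libraries.

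**Figure D5:**
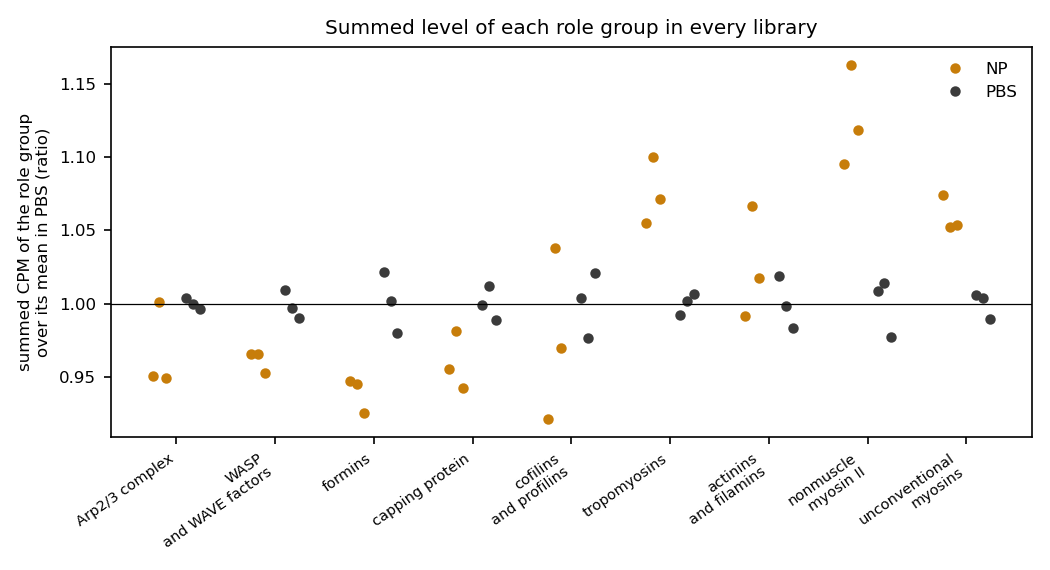
Summed CPM of each role group in every library, divided by the mean of that sum in PBS (ratio), NP left of PBS. Points are libraries and the line marks 1, the PBS mean. Before division, nonmuscle myosin II summed to 1014 to 1077 CPM in NP against 905 to 939 CPM in PBS, tropomyosins to 1266 to 1320 CPM in NP against 1191 to 1208 CPM in PBS, and formins to 595 to 609 CPM in NP against 630 to 657 CPM in PBS.

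The 14 untested members had between 0 and 49 counts over the 6 libraries. Besides Wasf1 and Wasf3 they were Actn2 and Actn3, the actinins of muscle, Capza3, the testis form of the alpha subunit, which had 0 counts, and the myosins Myo1a, Myo1h, Myo3a, Myo3b, Myo5b, Myo5c, Myo7b, Myo15 and Myo15b. Myo15, a hair-cell motor, summed to 19 counts in NP and 5 counts in PBS, a depth-scaled ratio of 2.97 with a 95% counting interval of 1.07 to 10.2. In the other direction, Myo15b and Wasf3 each had 0 counts in NP and 7 counts in PBS, with an interval for the ratio of 0 to 0.542. In PBS 1 to 3 these were 0, 5 and 2 counts for Wasf3, so PBS 1 did not differ from NP, and 3, 1 and 3 counts for Myo15b. The intervals of Wasf1, Actn3, Myo1a, Myo1h, Myo3b, Myo5b and Myo5c included 1. All these intervals are of counts summed over a group, leave out the spread between libraries and are not adjusted for their number. The rule also took Capza1-ps1, a pseudogene that was tested and did not pass (log2 change 0.07).

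The position of NP 2 was shared by many members. In 18 of the 24 called members NP 2 was the NP library nearest to PBS, and the same held for 67.6% of all 5964 called genes. Its Fmnl2 change was 0.456 times the mean of those of NP 1 and NP 3, its Fmnl1 change 0.585 times and its Myo16 change 1.02 times.

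Around these members, 160 other actin-regulating genes were listed and 144 were tested. Of these, 35 were higher, 48 were lower and 61 did not pass, with a median log2 change of -0.06. The higher genes were 24.3% of those tested and the lower genes 33.3%, where 19.8% of all tested genes were higher and 21.4% lower. The counts of the smaller lists that follow stand beside the same shares of all genes, and in a list of 10 genes those shares amount to about 2 in each direction. The count of 48 fell to 30 without NP 3, where 12.5% of all genes tested that way were lower. Rhoc, which encodes a small GTPase, was at 313 ± 10.7 CPM in NP against 242 ± 2.22 CPM in PBS (log2 change 0.37, adjusted p = 4.66e-05 by limma voom). Cdc42ep3, an effector of Cdc42, was at 15.5 ± 1.27 CPM in NP against 25.4 ± 0.43 CPM in PBS (log2 change -0.72, adjusted p = 3.72e-05 by limma voom).

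The monomer-sequestering thymosins moved in opposite directions. Tmsb4x was at 974 ± 83.2 CPM in NP against 1299 ± 19.8 CPM in PBS (log2 change -0.42), and Tmsb10 at 319 ± 9.4 CPM in NP against 250 ± 13.4 CPM in PBS (log2 change 0.35). Both passed, with adjusted p of 0.000326 and 0.000233 by limma voom. Among severing and capping genes 5 of 21 were higher and 4 lower. The severing protein gene Dstn was higher (log2 change 0.20), and Gmfg, which encodes a blood-cell factor that takes Arp2/3 branches apart, was lower at 19.8 ± 1.75 CPM in NP against 32.7 ± 1.25 CPM in PBS (log2 change -0.73, adjusted p = 3.81e-05 by limma voom).

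Of 25 tested partners of WASP and WAVE, 7 were higher and 8 lower, with log2 changes from -0.56 to 0.57. The smallest p in each direction belonged to Jmy (log2 change 0.35) and the adaptor gene Nck1 (log2 change -0.29). Of 10 other nucleators and elongators 2 were higher and 2 lower, with the formin genes Fhod3 (log2 change 0.36) and Fhod1 (log2 change -0.26) on opposite sides. Of 18 bundlers and membrane linkers 4 were higher and 8 lower, with Pstpip1, which encodes a partner of WASP, at 102 ± 5.52 CPM in NP against 73.0 ± 3.85 CPM in PBS, and the scaffold gene Iqgap2 at 9.41 ± 0.33 CPM in NP against 19.0 ± 1.25 CPM in PBS.

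Of 17 adhesion links 6 were higher and 5 lower, beside 19.8% and 21.4% of all tested genes. Vcl, which encodes vinculin, the link between integrin adhesions and actin, was at 92.4 ± 2.23 CPM in NP against 63.5 ± 2.05 CPM in PBS (log2 change 0.54, adjusted p = 1.36e-05 by limma voom), and Lpxn, the leukocyte relative of paxillin, was lower (log2 change -0.37). Of 10 myosin light chains and their regulators 2 were higher and 2 lower. Mylk2, a myosin light chain kinase of skeletal muscle, was at 0.66 ± 0.0987 CPM in NP against 0.142 ± 0.0318 CPM in PBS (log2 change 2.17). Its PBS mean lay below the filter of 0.171 CPM, so Mylk2 was tested through its NP libraries and its p is not given. The 2 higher genes of this list and the 35 of all lists still include Mylk2, a gene let in by the group where it is high. The light chain gene Myl12b was lower (log2 change -0.24). Of SRF and its cofactors, the regulators of many actin genes, 2 of 3 were higher, Mrtfb by a log2 change of 0.17 and Srf by 0.11.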

How the data were processed

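The authors deposited expected counts per gene for all 6 libraries in a single table, not scaled for depth, and all its values were whole numbers of 0 or more. Per the submitters' processing notes, tools included STAR 2.7.8a and RSEM 1.3.3, with cutadapt 2.3, MultiQC 1.7 and FastQC 0.11.8, and the build was GRCm38. No source used here gives the annotation release or the strand setting. RSEM divides reads that match several genes. Of 55491 rows, 4 reporter constructs with 0 counts were left out. All 67 members matched GENCODE M21 by identifier, which gave positions and exonic lengths. TPM were computed from the counts and exonic lengths, and CPM from library sizes scaled by trimmed-mean (TMM) factors.

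Genes with at least 0.171 CPM (10 counts at the median depth) in 3 libraries and 15 counts in all were tested with limma 3.58.1 (voom) in R 4.3.3 on group alone, with 4 residual degrees of freedom, after a test on simulated counts. Same-group libraries differed by a chi-square of 4.92 to 19.6 per gene, more than sampling noise. Intervals cover counting error only. Members and lists were chosen with earlier results of these data known. Values per library were given for members with adjusted p under 0.05 and a log2 change of at least 0.3 in size, and for the most abundant member of each role. A few genes that these rules take are not reported here. In each other list the smallest p in each direction was named. Alternatives were 2 scalings, 2 filters, sample weights, limma-trend, a replicate block and left-out libraries.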

Additional observations from a re-analysis of the deposited data

How the results depend on the processing

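The count of 16 higher members stayed within 1.5 times in all alternatives except one with PBS 1 as the sole PBS library (8), with 12 to 17 when 1 library was left out. The count of 8 lower members was 5 with no low-count filter, 13 with sample quality weights, 5 with the replicate block and 3 with PBS 1 as the sole PBS library, and 3 to 10 when 1 library was left out. Of the other actin-regulating genes, 35 were higher, 16 with PBS 1 alone and 28 to 36 when 1 library was left out, and 48 were lower, 31 with PBS 1 alone and 30 to 47 when 1 library was left out. With PBS 1 alone the PBS spread is taken from the NP libraries. Of the 24 called members, 10 kept their call in all 16 settings, among them Actn1, Flnc, Diaph3, Fmnl1, Tpm1, Tpm2, Myo16, Myo1d and Myo5a. The log2 change of Flna ran from -0.05 to 0.02 when 1 library was left out, with 0.02 without NP 1 and 0.01 without PBS 1, and that of Tpm4 was -0.01 without PBS 2 and NP 2. In neither was the change called in any setting.

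Same-numbered NP and PBS libraries did not deviate together (correlations -0.0144, -0.124 and -0.141). Paired libraries may share little deviation, so these values cannot tell whether the numbers pair the libraries. The labels do not say what a shared number means. The replicate block gave 14 higher and 5 lower members, and 32 higher and 41 lower among the other genes. It ended the calls of Actr3, Arpc2 (adjusted p = 0.0589), Capzb, Pfn2 and Myo1c. Without PBS 2 and NP 2, Actr3 and Myo1c lost theirs. edgeR and DESeq2 were not run, because the unit of the deposited columns could not be checked automatically. Members of a few counts are limited by depth.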
